A study of Mus musculus with 27 samples.

Results

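The cells described here are epicardial cells of the mouse embryonic heart at E11.5 (E for embryonic day), taken from a droplet single-cell table. They were chosen by measured values. A cell was kept when haemoglobin genes held under 10% of its UMIs (unique molecular identifiers, each marking a captured RNA molecule), when Tnnt2, Actc1, Myl7, Myl4 and Tnnc1 together held under 0.5% of its UMIs, when Pecam1, Cdh5 and Egfl7 together had under 3 UMIs, and when Upk3b, Upk1b, Wt1, Krt7 and Lrrn4 together had at least 4 UMIs. This gave 324 of 6032 cells, of which 118 of 2563 were in the library labelled +/+ and 206 of 3469 in the library labelled F/F.

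The study deleted Hand2os1 (also called Hand2as), a long non-coding RNA gene beside Hand2, in C57BL/6 mice. The single-cell libraries came from wild-type (+/+) and F/F embryos of heterozygote intercrosses, where F is the full-length knockout allele. Each is a single library: cells of 6 hearts per genotype were trypsinised, sorted as living with the dye 7-AAD and pooled. Bulk RNA was sequenced from whole hearts at E11.5 (3 libraries F/+, 3 F/F), from ventricles at E16.5 (again 3 and 3), and from adult cardiomyocytes at 8 weeks (5 libraries +/+, 2 D/+ and 6 D/D, D being the distal knockout allele). The bulk embryonic controls carry 1 F allele, whereas the single-cell controls carry none.

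The epicardium is the mesothelial sheet that covers the heart. It arises from the proepicardium, spreads over the myocardium, and part of it undergoes an epithelial-to-mesenchymal transition that yields fibroblasts and mural cells of the coronary vessels. It also secretes retinoic acid and growth factors that act on the myocardium below. Wt1, Tbx18 and Tcf21 are transcription factors used to mark it, Aldh1a2 makes retinoic acid in it, and Upk3b and Upk1b encode uroplakins, membrane proteins shared by mesothelia and the bladder lining.

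Each genotype has a single library of cells, so differences between the libraries were not tested. Values are UMIs summed over the cells of a library and given as CPM (counts scaled to a common total per group of cells), and the 95% intervals cover counting error only, not the spread between embryos. The libraries also differed in measures that genotype does not name. Y-linked genes (4 listed) had 35 UMIs in the epicardial cells of the library labelled +/+ and 0 UMIs in those of the library labelled F/F, and 22.4 CPM against 0 CPM in all other cells. Liver and gut epithelium markers summed to 205 CPM in the other cells of the library labelled +/+ and 6.03 CPM in those labelled F/F. Hand2os1, matched as Gm28063, had 1 UMI and 9 UMIs in the other cells of the libraries labelled +/+ and F/F and 0 UMIs in the epicardial cells of both, so it does not check the labels. The libraries share 18 cell barcodes, and 5 of the epicardial cells, all labelled F/F, carry such a barcode; without shared barcodes 118 and 201 epicardial cells were left.

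Most selected cells held far more marker UMIs than the limit of 4. The same sum chose the cells, so it cannot show that they form a separate group. Among the cells that passed the exclusions, 939 had no UMI of the 5 selecting genes, 147 had 1 to 3 UMIs and 13 had 4 to 7 UMIs, the latter just inside the limit. The median epicardial cell had 32 marker UMIs in the library labelled +/+ and 30 in the library labelled F/F. Cells just inside and just outside the limit differed in other genes: the 13 cells at 4 to 7 UMIs held Tbx18 at 124 CPM and Postn, a cushion mesenchyme gene, at 174 CPM, whereas the 147 cells at 1 to 3 UMIs held them at 41.2 and 448 CPM. In the 311 cells with 8 or more marker UMIs Tbx18 stood at 372 CPM and Postn at 15.3 CPM. The exclusions also left marker-rich cells outside: 33 cells labelled +/+ and 57 labelled F/F had 20 or more marker UMIs, and 28 and 42 of these were excluded by their muscle share.

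**Figure D1:**
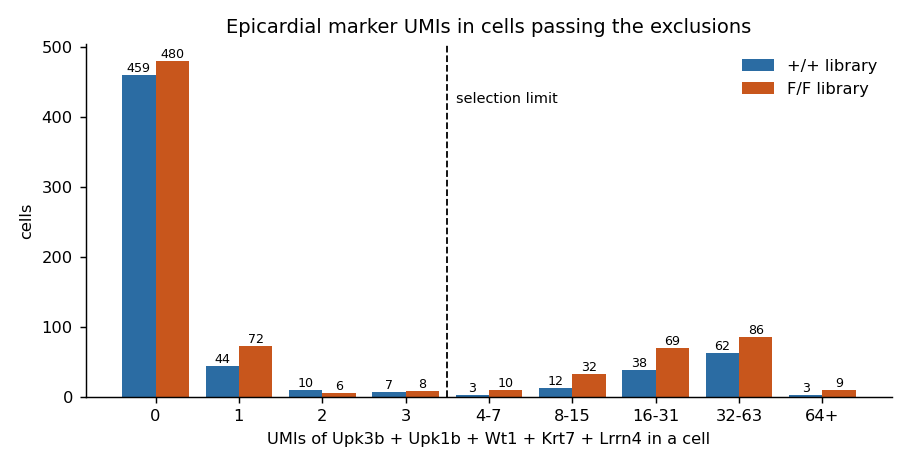
Number of cells (vertical axis) by the summed UMIs of Upk3b, Upk1b, Wt1, Krt7 and Lrrn4 (horizontal axis, binned) among cells that passed the 3 exclusions, for each library. The dashed line is the selection limit; 13 selected cells lie in the first bin to its right and 147 cells in the 3 bins to its left that hold 1 to 3 UMIs.

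Epicardial cells were 4.60% of the cells labelled +/+ (exact binomial interval 3.83% to 5.49%) and 5.94% of those labelled F/F (5.17% to 6.78%). The intervals overlap, but they cover counting error only. With a single library per genotype, nothing on a difference in share is read from them. The epicardial cells had a median of 14843 and 15947 UMIs, close to the 13254 and 13210 UMIs of the other cells, and medians of 3648.5 and 3707 detected genes. A lower muscle limit of 0.25% left 67 and 108 cells.

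The start regions of 3 genes are shown because these genes carry the results: Upk3b is the strongest selecting marker by CPM, Aldh1a2 is the retinoic acid enzyme, and Apela was past 2-fold lower in the library labelled F/F. Each line gives the 250 bases before the RefSeq start site (build GRCm38.p6), 5′ to 3′ on the gene's strand, with capitals marking the letters GGAATG or their reverse complement CATTCC, the core bound by TEAD factors.
Upk3b, chr5:136038246-136038495, plus strand: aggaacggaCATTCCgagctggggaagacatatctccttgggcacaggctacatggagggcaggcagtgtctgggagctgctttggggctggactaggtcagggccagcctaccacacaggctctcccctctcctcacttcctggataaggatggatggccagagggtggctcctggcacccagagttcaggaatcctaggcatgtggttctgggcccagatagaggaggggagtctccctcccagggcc
Aldh1a2, chr9:71215539-71215788, plus strand: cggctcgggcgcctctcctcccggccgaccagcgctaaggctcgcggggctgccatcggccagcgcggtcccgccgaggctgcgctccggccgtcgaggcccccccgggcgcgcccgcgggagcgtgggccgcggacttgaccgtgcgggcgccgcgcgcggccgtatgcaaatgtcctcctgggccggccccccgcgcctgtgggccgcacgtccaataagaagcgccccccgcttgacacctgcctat
Apela, chr8:65037337-65037586, minus strand: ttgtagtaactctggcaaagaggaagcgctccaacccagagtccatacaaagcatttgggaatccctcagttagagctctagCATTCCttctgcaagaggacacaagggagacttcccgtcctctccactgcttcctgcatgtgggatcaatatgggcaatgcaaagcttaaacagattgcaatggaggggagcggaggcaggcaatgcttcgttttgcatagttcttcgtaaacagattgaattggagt

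The Upk3b match begins 241 bases and the Apela match 168 bases before the start, and the Aldh1a2 window holds none. RefSeq windows were matched for 20 of the 26 selecting, marker and leading genes. GGAATG on either strand was found in 6 of these 20 (Aldh1a1, Apela, Fah, Kcne1l, Lrrn4 and Upk3b) against 12.6% of 27025 promoter windows. The GATA letters AGATAA were found in 1 of the 20 against 10.3% of all windows, and the T-box letters GGTGTGA in 2 of the 20 against 3.31%. These are matches of letters, not shown binding sites.

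The selecting genes were high in both libraries by construction. Upk3b stood at 1155 CPM in the epicardial cells labelled +/+ and 1051 CPM in those labelled F/F, against 26.8 and 33.2 CPM in all other cells. Wt1, the zinc finger factor of mesothelia, stood at 263 and 254 CPM, and Krt7, a simple-epithelial keratin, at 226 and 221 CPM. Upk1b (240 and 220 CPM) and Lrrn4, a leucine-rich repeat membrane protein (196 and 167 CPM), completed the set. None of these differences between libraries reached 2-fold.

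The label was checked on markers that the selection did not use. Tbx18 stood at 405 CPM in the epicardial cells labelled +/+ and 341 CPM in those labelled F/F, against 17.1 and 16.4 CPM in the other cells. Tcf21, which marks cells on the way to fibroblasts as well as the epicardium, stood at 337 and 347 CPM against 16.4 and 20.4 CPM. Of 20 epicardial and mesothelial genes outside the selection, 16 had enough UMIs to compare with the other cells. Of these, 13 were at least 4-fold higher in both libraries, against 2.75% of all genes compared. Among the 13 were Sema3d, a guidance factor (40.2-fold and 21.6-fold), and Gpm6a, a membrane glycoprotein (22.0-fold and 24.4-fold). The keratins Krt8, Krt18 and Krt19 were 6.13-fold to 12.8-fold higher. Mesothelin (Msln) and Muc16, markers of adult mesothelium, had 22 and 20 UMIs in all 324 cells.

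**Figure D2:**
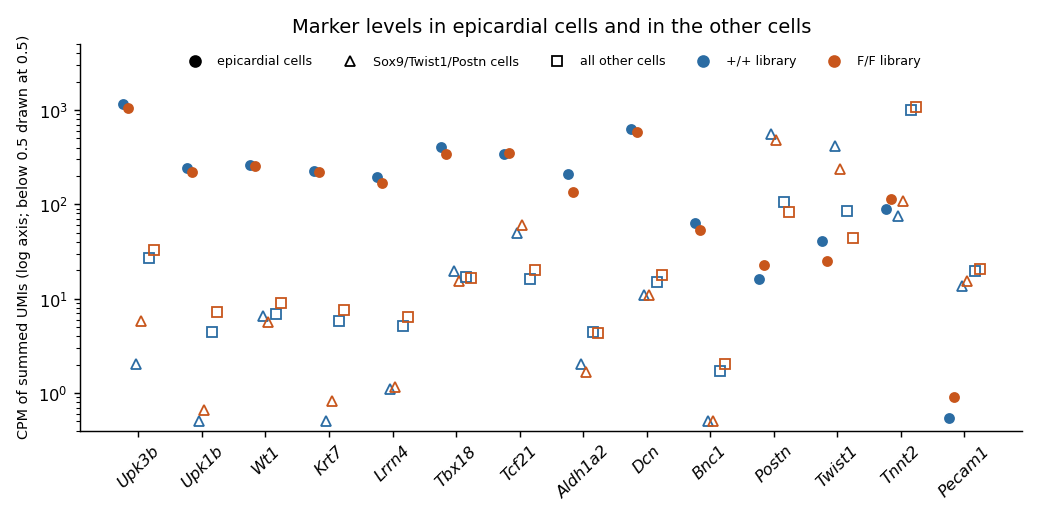
CPM of summed UMIs (vertical log axis) for 14 genes in epicardial cells (filled circles), in Sox9, Twist1 and Postn cells (triangles) and in all other cells (squares) of each library. Upk3b to Bnc1 sit highest in the epicardial cells of both libraries, and Postn and Twist1 sit highest in the Sox9, Twist1 and Postn cells, which were chosen on them.

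Single cells carried several epicardial markers together, although 1 of the 4 counted here, Wt1, was a selecting gene. After each cell was thinned to 5000 UMIs (118 and 203 epicardial cells reached that depth), at least 3 of Wt1, Tbx18, Tcf21 and Aldh1a2 had a UMI in 83 of 118 epicardial cells labelled +/+ and 123 of 203 labelled F/F. All 4 were found in 30.5% and 21.2% of these cells. In mesenchyme, taken as the remaining cells (under 4 UMIs of the selecting genes, Wt1 included) with at least 4 UMIs of Sox9, Twist1 and Postn, all 4 were found in 0 of 387 cells labelled +/+ (which allows up to 0.775%) and 1 of 415 labelled F/F. The rule favoured Wt1 in epicardial cells and limited it in mesenchyme, so part of this contrast was fixed by the selection. Counts of Wt1 with Tbx18, Wt1 with Tcf21, and Tbx18 with Tcf21 had Pearson r between -0.05 and 0.08 over the cells of either library, given as a description of sparse counts.

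A muscle gene was an exception to the low muscle share of these cells. Myl7, the atrial myosin light chain, stood at 1925 CPM in the epicardial cells labelled +/+ and 2002 CPM in those labelled F/F. In mesenchyme it stood at 89.3 and 208 CPM, so the epicardial level was 21.6-fold and 9.60-fold higher. After thinning, Myl7 had a UMI in 95.8% and 97.5% of epicardial cells, with medians of 9.5 and 9 UMIs, and in 35.9% and 66.0% of mesenchyme cells. Tnnt2, the cardiac troponin T gene, did not follow it, at 88.8 and 115 CPM in epicardial cells and 75.6 and 110 CPM in mesenchyme. Myl4 (99.6 and 181 CPM against 72.1 and 169 CPM) and Tnnc1 (47.7 and 83.7 CPM against 40.2 and 99.7 CPM) were near the mesenchyme level, and Actc1 was below it, at 139 and 223 CPM against 399 and 508 CPM. Since Myl7 is part of the selection limit, its level in these cells was capped by the rule.

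Against all other cells, 327 of 11901 genes with at least 100 UMIs in all cells (2.75%) were at least 4-fold higher in the epicardial cells of both libraries, and 667 (5.6%) were at least 4-fold lower. The epicardial cells were defined from these same counts, so the ratios describe them and were not tested. Haemoglobin genes took 25.01% and 24.31% of the UMIs of the other cells, which lowers the CPM of every other gene there. Without haemoglobin and mitochondrial genes in the totals, 218 genes were at least 4-fold higher and 795 lower.

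Beyond the selecting genes, the 20 genes with the highest ratios are given by what they encode. Aqp5, a water channel, ranked first by the lower of its ratios in the libraries, 81.8-fold and 46.6-fold, at a low level of 31.4 and 30.0 CPM. Dcn, the proteoglycan decorin, stood at 633 and 579 CPM, and Fmod, the related fibromodulin, at 74.7 and 59.1 CPM. Further secreted products were Egfl6 (43.9 and 27.9 CPM), Angptl7 (18.4 and 25.8 CPM), Rspo1, an enhancer of Wnt signalling (90.4 and 71.4 CPM), and the cytokines Il18 (55.8 and 48.6 CPM) and Clcf1 (13.0 and 11.1 CPM). Apela, the peptide ligand of the apelin receptor, stood at 884 and 359 CPM, and Smpd3, neutral sphingomyelinase, at 222 and 51.6 CPM.

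The transcription factors Lhx9 (29.2 and 33.0 CPM) and Bnc1 (63.9 and 52.8 CPM) were 53.3-fold and 37.0-fold above the other cells in the library labelled +/+. Enzymes on the list were Aldh1a2, Aldh1a1, the cytochrome Cyp2s1, and Fah, which acts in tyrosine breakdown, all at least 22.2-fold higher in both libraries. The membrane proteins Tmem255a (106 and 133 CPM) and Tm4sf5 (73.1 and 62.7 CPM), Csdc2 (29.2 and 27.0 CPM) and the potassium channel subunit Kcne1l (305 and 354 CPM) completed the 20 genes. Among genes with at least 1000 UMIs in all cells, Slc25a21, Lmod2, Rhd, Ppargc1a, C1qb and Gm16867 had the lowest ratios; Slc25a21 had 0 UMIs in the epicardial cells of either library. Lmod2 belongs to heart muscle, Rhd to red cells and C1qb to macrophages.

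Markers of other cell types are given next, where the selection itself limited the endothelial and erythroid ones. Immune markers summed to 6.50 CPM and 9.30 CPM, with Ptprc, Aif1 and Laptm5 at 0 UMIs in both libraries. Of 11 endothelial markers none was 4-fold higher and 5 were 4-fold lower (all genes, 2.75% and 5.6%). However, Pecam1, Cdh5 and Egfl7 are among the 11 and were capped by the selection. Of those it did not use, Kdr, a VEGF receptor, stood at 2.17 and 3.90 CPM against 13.7 and 13.2 CPM in the other cells. Tek, the angiopoietin receptor, stood at 34.7 and 34.5 CPM against 17.5 and 15.5 CPM in the other cells. Erythroid markers, mostly haemoglobin genes that the selection limits, summed to 13300 and 14280 CPM, and to 14448 and 14804 CPM in mesenchyme, which passed the same limit. Liver and gut markers summed to 14.1 and 3.001 CPM.

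Of 10 cushion mesenchyme markers, 4 were at least 4-fold lower than in the other cells and 1 was higher (all genes, 5.6% and 2.75%). Postn had a UMI in 6.78% and 7.39% of thinned epicardial cells, whereas Sox9, a cartilage and cushion factor, had one in 38.14% and 32.02% and stood at 145 and 127 CPM, above the 91.6 and 80.8 CPM of the other cells. Mesenchyme was itself chosen on Sox9, Twist1 and Postn, so its levels of these genes are no comparison. Of 21 genes of the epithelial-to-mesenchymal transition, 4 were at least 4-fold higher than in the other cells and 3 lower, beside 2.75% and 5.6% of all genes; the cells were chosen from these counts, so nothing is read from the shares. Col1a2 (564 and 522 CPM) and Col1a1 (224 and 238 CPM), the fibrillar collagen chains, exceeded their mesenchyme level of 114 and 96.4 CPM and of 186 and 147 CPM, and Cdh11 stood at 155 and 117 CPM. Snai2, a repressor that drives the transition, stood at 30.9 and 27.6 CPM, below the 53.2 and 55.7 CPM of mesenchyme, and Twist1 at 40.6 and 25.2 CPM, against 86.0 and 43.7 CPM in all other cells.

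Epithelial genes were present in part. Cdh1, the E-cadherin gene, had 0 UMIs in the epicardial cells of both libraries, which allows a share of up to 2.54% and 1.46% of cells with a UMI. Of 24 junction and polarity genes, 18 could be compared and 7 were at least 4-fold higher (all genes, 2.75%). Ezr, which links membrane and actin, stood at 388 and 343 CPM (10.98-fold and 9.64-fold), and the polarity genes Crb2 and Pard6b were 12.7-fold and 7.96-fold higher in the library labelled +/+. Among basement membrane and matrix genes 7 of 25 were at least 4-fold higher (all genes, 2.75%), with Efemp1 at 17.3-fold and 16.7-fold and Sparc at 2890 and 2678 CPM. Vcan, the cushion proteoglycan versican, was lower, at 48.7 and 49.2 CPM against 216 and 187 CPM.

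Of 16 retinoic acid genes compared with the other cells, 3 were at least 4-fold higher and 1 lower (all genes, 2.75% and 5.6%). Of the synthesising enzymes, Aldh1a2 was 47.0-fold and 31.2-fold and Aldh1a1 29.9-fold and 22.2-fold higher than in the other cells. Aldh1a3 was 1.48-fold and 5.38-fold higher. Cyp26b1, which breaks retinoic acid down, had 0 UMIs in all 324 cells. The receptor genes Rara (18.95 and 18.91 CPM) and Rarb (6.50 and 8.70 CPM) were within 2-fold of the other cells.

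Among 28 secreted growth factors, Ptn stood at 1322 and 1316 CPM, 11.9-fold and 13.3-fold above the other cells, and Mdk, the related midkine, at 1337 and 1304 CPM. Fgf9, an epicardial mitogen for myocardium, had 41 and 54 UMIs, which gives 22.2 and 16.2 CPM, against 0.29 and 0.91 CPM in all remaining cells that passed the exclusions. Igf2 stood at 675 and 623 CPM. Receptors at least 4-fold higher than in the other cells numbered 2 of 25 (all genes, 2.75%), and Nrp1, a co-receptor of VEGF and semaphorins, stood at 304 and 236 CPM.

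Likeness to the selecting genes is given as a description only, since their sum chose the cells. Over 6670 genes in thinned cells, the 5 with the highest mean Pearson r to the summed selecting genes were Cdkn1c (0.34), an inhibitor of the cell cycle, S100a10 (0.31), Smim1 (0.31), S100a11 (0.30) and Dcn (0.30). The lowest was Pdlim3 at -0.45, followed by Cd24a, Cthrc1, Cxcl12 and Mef2c. The values are over 118 and 203 cells, and all cells of a library share its depth and free RNA. By the S phase list, 61.0% and 70.9% of thinned epicardial cells had at least 5 UMIs (intervals 51.6% to 69.9% and 64.2% to 77.1%), and by the G2 and M list 48.3% and 48.8%.

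Between the libraries, 5237 genes had at least 100 UMIs over the epicardial cells of both. The library labelled F/F was at least 2-fold lower in 30 genes (0.573%) and at least 2-fold higher in 3 genes (0.0573%), with a median log2 ratio of -0.02; without shared barcodes these were 31 and 4 genes. All 30 lower genes were also lower in the other cells, 14 of them at least 2-fold. None of the 3 higher genes was 2-fold higher there. Over the genes compared, ratios in epicardial cells and in other cells had a Pearson r of 0.51. None of the 5 selecting genes, Tbx18 or Tcf21 passed 2-fold. Of the 15 tested epicardial and mesothelial genes outside the selection 9 were below 0, with a median of -0.25 and a range of -0.80 to 0.34. Both sides of each ratio come from the same pair of libraries as the ratio in all other cells, so the values are given side by side. All other cells include the marker-rich cells that the exclusions left outside, and their part in those ratios was not tested.

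Smpd3, the sphingomyelinase, had 410 UMIs in the 118 epicardial cells labelled +/+ and 172 UMIs in the 206 labelled F/F. This is 222 CPM (201 to 245) against 51.6 CPM (44.2 to 59.9), a log2 ratio of -2.10 (interval -2.37 to -1.84), beside -1.04 in all other cells, where it stood at 3.54 and 1.73 CPM. In the remaining cells that passed the exclusions it had 11 and 3 UMIs, a log2 ratio of -2.02. After thinning, 49.2% and 21.2% of epicardial cells held a UMI, against 0.775% of 387 and 0 of 415 mesenchyme cells (the latter allows up to 0.723%). The mean was 1.10 against 0.28 UMIs per thinned epicardial cell.

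Apela, the apelin receptor ligand, had 1633 and 1197 UMIs, which is 884 CPM (842 to 928) against 359 CPM (339 to 380). Its log2 ratio was -1.30 (-1.41 to -1.19), beside -0.95 in all other cells and -0.33 in the remaining cells that passed the exclusions, where it stood at 3.765 and 3.003 CPM. All other cells had 850 and 580 Apela UMIs. Of these, 26 and 23 were in the remaining cells and 41 and 43 in cells over the haemoglobin limit. Thinned epicardial cells held Apela in 78.0% and 66.0%, with means of 4.23 and 1.80 UMIs. Maf, a basic leucine zipper factor, stood at 129 and 52.2 CPM (log2 ratio -1.31, -1.60 to -1.02, beside -0.75). These 3 genes were also at least 4-fold above the other cells in both libraries.

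Aldh1a2 did not pass 2-fold, at 207 CPM (187 to 229) against 135 CPM (123 to 148). Its log2 ratio was -0.62 (-0.82 to -0.42), beside -0.03 in all other cells, and 61.0% and 47.3% of thinned epicardial cells held a UMI. Tbx18 stood at -0.25 (-0.38 to -0.11) and Tcf21 at 0.04. Over the 208 genes that were both 4-fold above the other cells and frequent enough to compare, 148 (71.2%) were below 0 with a median of -0.13, against 53.8% of all genes compared and a median of -0.02.

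**Figure D3:**
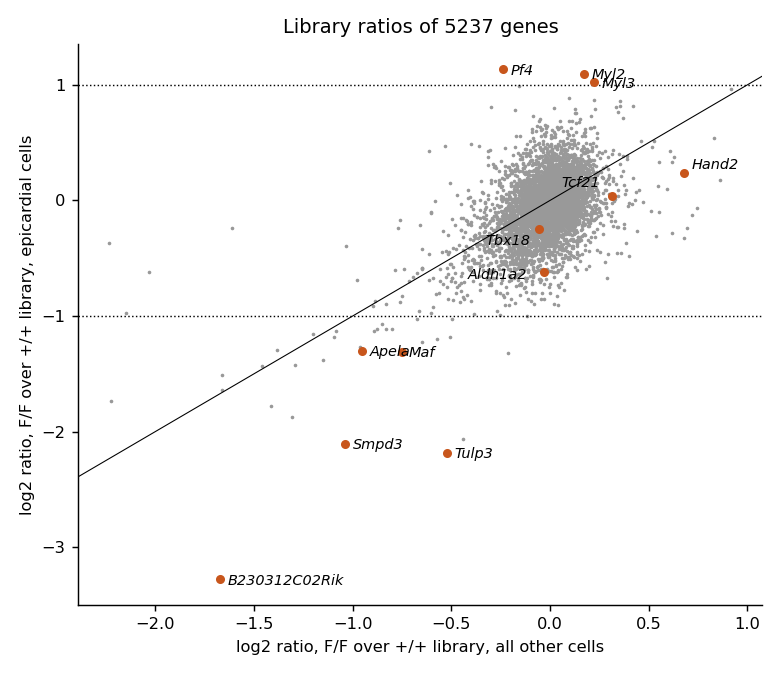
Each point is a gene (5237 in all); the horizontal axis is the log2 CPM ratio of the library labelled F/F to that labelled +/+ in all other cells and the vertical axis the same ratio in epicardial cells. Dotted lines mark 2-fold and the solid line equal ratios; Smpd3 lies at -2.10 in epicardial cells and -1.04 in the other cells, and Hand2 at 0.24 and 0.68.

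The other genes with the lowest ratios were mostly low in both cell groups. B230312C02Rik stood at 157 and 16.2 CPM in epicardial cells (log2 ratio -3.28, beside -1.67 in all other cells). Naa15, an acetyltransferase subunit, had -1.87 beside -1.31, and Snhg9, a small nucleolar RNA host gene, -1.74 beside -2.22. Nmt1, a myristoyltransferase, had -1.43 beside -1.46, Amd1 -1.42 beside -1.29, Ikzf5 -1.78 beside -1.41 and Rrm2b -1.64 beside -1.66. For Tulp3, which acts in cilia (-2.18 beside -0.52), and Ppp2r3a, a phosphatase subunit (-2.07 beside -0.44), the ratio was further from 0 in epicardial cells than in all other cells. The same held for B230312C02Rik, given above, and for Sgol2a (-1.32 beside -0.21), among others. In the remaining cells that passed the exclusions, Ppp2r3a had a ratio of -1.50 (22.2 and 7.83 CPM) and Tulp3 of -0.19 (22.0 and 19.3 CPM). The mitochondrial gene mt-Atp8 had -1.51 beside -1.66. Hes1, a Notch target (-1.11 beside -0.80), and Edn1, endothelin 1 (-1.29 beside -1.38), were also past 2-fold.

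The 3 genes past 2-fold in the other direction were Pf4, a platelet chemokine (12.5 and 27.3 CPM), and the ventricular light chains Myl2 (82.9 and 177 CPM) and Myl3 (54.2 and 110 CPM). All 3 were far higher in the other cells than in epicardial cells. The levels in mesenchyme were alike: Pf4 stood there at 10.2 and 25.5 CPM, Myl2 at 81.7 and 167 CPM and Myl3 at 48.9 and 110 CPM. Of the 12 cardiomyocyte markers, 8 were compared, none was below 0 (all genes compared, 53.8%) and the median log2 ratio was 0.66. Tnnt2, Actc1, Myl7, Myl4 and Tnnc1 are among the 8, and the selection capped their sum. The others were Tnni3 (0.81), Myh7 (0.64) and Tnni1 (0.14). The part of free muscle RNA in these differences was not tested. Ociad2, Gm26917, Idi1, Slc25a46, Myl4, Mgarp and Tnnc1 followed, with log2 ratios of 0.81 to 0.99.

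Hand2, the neighbour of the deleted gene and a transcription factor of heart and epicardium, stood at 99.1 CPM (85.3 to 115) in the epicardial cells labelled +/+ and 117 CPM (106 to 129) in those labelled F/F. Its log2 ratio was 0.24 (-0.02 to 0.50), at rank 619 of the 5237 genes from the top, and the interval includes 0. In all other cells it stood at 47.3 and 75.8 CPM (0.68), and in mesenchyme at 102 and 143 CPM. After thinning, 36.4% and 38.4% of epicardial cells held a Hand2 UMI, against 38.0% and 47.2% of mesenchyme cells. The flanking genes Hmgb2 (0.17), Hpgd (0.25) and Sap30 (0.09) had ratios near that of Hand2; Hpgd, which inactivates prostaglandins, was itself 20.5-fold and 18.9-fold above the other cells.

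Of 27 heart and mesothelial transcription factors, 18 were compared and 16 were below 0, with a median of -0.26 and none past 2-fold. Gata4 stood at 118 and 82.2 CPM (log2 ratio -0.52) and Gata6 at 181 and 150 CPM (-0.27), beside Tead1 at 121 and 92.4 CPM (-0.39). The secreted growth factors were below 0 in 13 of 13 (median -0.28), the receptors in 9 of 11 (median -0.21) and basement membrane and matrix genes in 16 of 18 (median -0.20). Junction and polarity genes were below 0 in 10 of 14 (median -0.24) and transition genes in 13 of 18 (median -0.15), whereas all genes compared had 53.8% below 0. S phase genes were below 0 in 7 of 18 (median 0.10), G2 and M phase genes in 15 of 18 (median -0.17) and hypoxia and glycolysis genes in 4 of 11 (median 0.14). No member of these lists passed 2-fold, and the dissociation and stress genes were below 0 in 10 of 10, with a median of -0.23. The part of cell handling in these ratios was not tested.

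**Figure D4:**
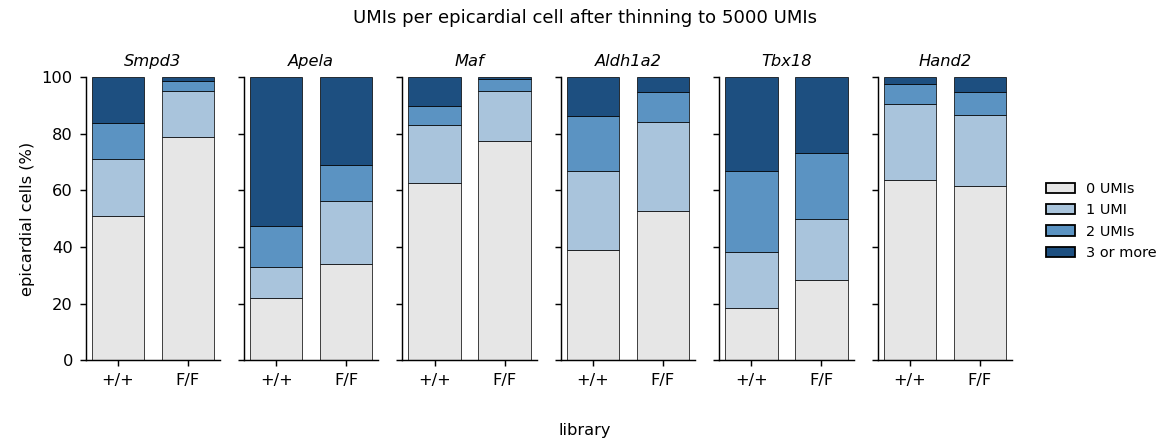
Share of epicardial cells (vertical axis, percent) with 0, 1, 2 and 3 or more UMIs of 6 genes after thinning to 5000 UMIs, in the libraries labelled +/+ (118 cells) and F/F (203 cells). Cells without a UMI make up more of the library labelled F/F for Smpd3, Apela, Maf, Aldh1a2 and Tbx18, whereas for Hand2 36.4% and 38.4% of cells held a UMI.

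The bulk libraries give the replicated counterpart of these values at E11.5. Values are FPKM (fragments scaled to transcript length and library size), tested as log2(FPKM + 1) with limma over 11491 genes, so a difference understates the change of low genes. In bulk tissue, fewer epicardial cells and less RNA per cell cannot be told apart. The labels number the replicates without saying that they are separate embryos, so p-values measure the spread between these samples. A single gene, Mir6236, passed an adjusted p of 0.05 (0.0087% of genes), and 502 had an unadjusted p under 0.05. None of the 21 tested epicardial genes passed, and none had an unadjusted p under 0.05. Their median log2 difference was 0.09, against 0.02 for all genes tested.

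Upk3b was at 94.7, 89.1 and 156 FPKM in the F/+ hearts and 132, 140 and 104 FPKM in the F/F hearts. The groups overlapped, with a log2 difference of 0.18 ± 0.22 (SE) and an adjusted p of 0.999 in limma. Wt1 was at 13.5, 17.1 and 25.6 FPKM against 17.6, 17.7 and 14.2 FPKM. The third F/+ heart was the highest of the 6 for Upk3b, Upk1b, Wt1, Krt7 and Tbx18. Aldh1a2 was at 42.5, 24.1 and 41.3 FPKM against 27.6, 36.4 and 29.3 FPKM, a difference of -0.17 ± 0.24 (adjusted p 0.999, limma).

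Smpd3 and Apela, lower in the epicardial cells labelled F/F, had higher group means in the F/F hearts. Smpd3 was at 3.73, 3.77 and 6.07 FPKM in the F/+ hearts and 6.39, 7.33 and 5.63 FPKM in the F/F hearts, and the groups overlapped (log2 difference 0.45 ± 0.27, adjusted p 0.999, limma). Apela was at 0.44, 0 and 1.63 FPKM against 2.59, 6.11 and 1.80 FPKM. All 3 F/F hearts lay above all 3 F/+ hearts, with a difference of 1.41 ± 0.49 and an unadjusted p of 0.015 that did not pass adjustment (0.999, limma). The Apela difference ranged from 1.02 to 2.80 over the alternatives tried. Values of the groups did not overlap for 9.23% of all genes at this stage. Maf differed by 0.37 ± 0.35 (adjusted p 0.999, limma) and overlapped.

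Of the 30 genes at least 2-fold lower in the epicardial cells labelled F/F, 25 were tested in bulk at E11.5. Here 13 were higher and 12 lower in F/F, with a median of 0.00 and none called. Groups did not overlap for 3 of the 25, Apela (higher), Tulp3 and Rbm15b (both lower), a share near the 9.23% of all genes. Tulp3 was at 11.9, 13.1 and 12.2 FPKM in F/+ hearts and 8.40, 9.74 and 10.9 FPKM in F/F hearts (log2 difference -0.33 ± 0.21, adjusted p 0.999, limma). No cardiomyocyte or endothelial marker passed the test. Cardiomyocyte markers had a median difference of 0.25, with 4 of 12 not overlapping, and endothelial markers 0.21, with 4 of 11 not overlapping, beside 9.23% of all genes. Erythroid markers deviated by -1.14 in the second and 1.02 in the third F/+ heart (median log2 deviation from the mean of the 6). The part of tissue makeup was not tested.

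**Figure D5:**
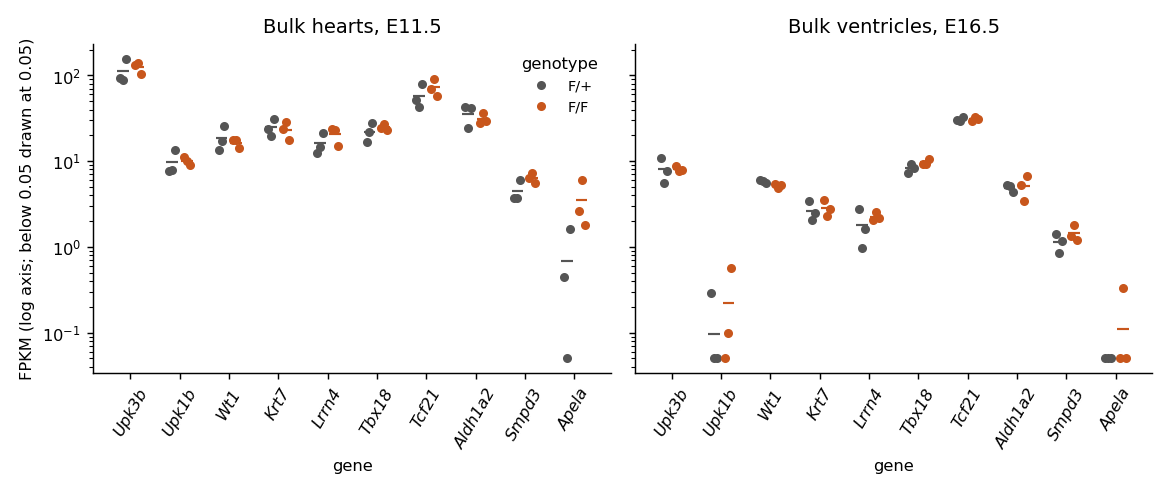
FPKM (vertical log axis) of 10 genes in each bulk library of F/+ and F/F genotype at E11.5 (hearts, left) and E16.5 (ventricles, right); points are libraries and short lines the group means. At E11.5 the genotypes overlap for every gene shown except Apela.

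Bulk libraries of later stages came from other tissue portions, and most epicardial genes were lower in the E16.5 ventricles. Libraries of all genotypes at a stage were pooled for these values. Of the 24 epicardial genes in the bulk table, 18 had every E11.5 heart above every E16.5 ventricle. Gpm6a, Dmkn, Msln, Rarres2, C3 and Cav1 did not. The share of all genes with this order was not computed, so the count cannot show that the order is particular to epicardial genes. Median Upk3b was 118 FPKM in the E11.5 hearts and 7.80 FPKM in the E16.5 ventricles, and it was at most 2.09 FPKM in any of the 8-week cardiomyocyte libraries. The medians of Tcf21 were 64.2 and 30.6 FPKM (2.10-fold) and those of Tbx18 were 23.7 and 9.31 FPKM (2.55-fold). Msln had the opposite order, with medians of 0.33 and 5.52 FPKM, as did Cav1, at 10.3 and 76.0 FPKM. In the 8-week cardiomyocytes the medians of C3 (10.95 FPKM), Rarres2 (9.06 FPKM), Cav1 (37.0 FPKM) and Aldh1a1 (2.05 FPKM) were above those at E11.5, and Podxl was at 54.8 against 57.8 FPKM. The stages were not tested against each other, since they differ in tissue.

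At E16.5 no epicardial gene passed the test between F/+ and F/F ventricles. Of 10699 genes 1 was called, again Mir6236 (0.00935%), with 281 at an unadjusted p under 0.05, and none of 16 tested epicardial genes was called. Wt1 was at 6.03, 5.84 and 5.59 FPKM in F/+ ventricles and 5.39, 4.82 and 5.32 FPKM in F/F ventricles. These groups did not overlap, which held for 6.78% of all genes, but the difference of -0.14 ± 0.11 did not pass (adjusted p 0.9999, limma). Igfbp5, a growth factor binding protein, was the only other epicardial gene without overlap, at 115, 107 and 108 FPKM against 92.0, 99.0 and 102 FPKM. Erythroid markers had a median difference of 0.77 at this stage, with 3 of 7 not overlapping, and their part in these values was not tested. Hand2 overlapped between genotypes at E11.5 (58.6, 77.5 and 86.7 FPKM against 75.9, 79.1 and 69.2 FPKM). At E16.5 it was at 52.9, 49.4 and 46.0 FPKM in F/+ ventricles and 44.4, 44.2 and 40.3 FPKM in F/F ventricles, without overlap, with a difference of -0.20 ± 0.09 that did not pass (adjusted p 0.9999, limma).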

How the data were processed

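For the cells, the authors deposited UMI counts (whole numbers, genes by barcodes), made with Cell Ranger on mm10 per the submitters' processing notes; barcode endings name the library. For bulk RNA the deposited values are FPKM, a unit inferred from the values since no header names it. The submitters' processing notes list CASAVA, TopHat, TopHat2 2.0.11 and mm9 for the bulk libraries; the annotation is not given in the sources used here. Bulk depth is unknown.

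The members and gene lists were chosen with earlier results of these data known. Named genes were the markers, the 20 highest and 6 lowest genes against other cells, the 10 highest and 10 lowest ratios between libraries, up to 6 genes of each list and any past 2-fold, Hand2, and the 5 genes most like the markers; other names were added after values were seen. Counts were summed per library and cell group. Count intervals are exact Poisson, ratio intervals exact conditional and share intervals Clopper-Pearson, at 95%. A count of 0 is given the limit of 3 counts. Barcodes held 3746 to 62583 UMIs. Doublets were kept; removing the highest scrublet scores (scanpy 1.11.5) was an alternative.

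Bulk values were tested with limma 3.58.1 in R 4.3.3 on log2(FPKM + 1) with an intensity trend, for genes whose mean reached 1 FPKM, each stage fitted alone, and Benjamini-Hochberg adjustment at 0.05. The fit was tested on simulated data. Alternatives were another pseudocount, no filter, median-ratio scaling, both stages in 1 fit, a replicate block, leaving out each library, and, for cells, other limits of the selection and of the totals. Leaving out barcodes that both libraries hold was added after seeing the data.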

Additional observations from a re-analysis of the deposited data

Results flagged for a closer look

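Among 16 combinations of an epicardial marker and an 8-week group of cardiomyocyte libraries, 3 had a library far above the rest of its group. Chance gives this in about 1 in 20 groups. Wt1 was at 3.19 FPKM in the fifth D/D library, against 1.52 FPKM in the next of 6. Lrrn4 was at 0.83 FPKM in the first +/+ library, against 0.15 FPKM in the next of 5. Tcf21 was at 8.40 FPKM in the fifth +/+ library, against 2.81 FPKM in the next of 5.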

How the results depend on the processing

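Among the cells, the settings tried were a marker minimum of 3 or 8 UMIs, thinning to 5000 UMIs before selection, at least 1000 genes per barcode, doublets removed, a muscle limit of 0.25%, totals without haemoglobin and mitochondrial genes, and leaving out barcodes that both libraries hold. The muscle limit of 0.25% left 67 and 108 epicardial cells (2.61% and 3.11% of the libraries labelled +/+ and F/F). Genes at least 2-fold higher in the library labelled F/F numbered 5 with that limit and 5 after thinning. Genes at least 2-fold lower ranged from 29 to 34, Hand2 from 0.17 to 0.29 and Apela from -1.51 to -1.24 on the log2 scale. B230312C02Rik, the gene with the lowest ratio, ranged from -4.94 to -2.69. The muscle limit of 0.25% moved Krt7 to -0.55, Aldh1a2 to -0.91, Tbx18 to -0.43 and Smpd3 to -1.77, and 239 of 248 recomputed single-cell log2 ratios stayed within the counting interval of the reported value. In bulk, genes called at E11.5 numbered 11 with both stages in 1 fit, and 1 to 2 when each library was left out, 2 without the third F/+ heart. At E16.5 they numbered 2 with a pseudocount of 0.1, and 0 to 2 when each library was left out: 2 without the second F/+ or the third F/F ventricle, and 0 in limma without the third F/+ or the first F/F ventricle (338 and 229 genes at an unadjusted p under 0.05). The replicate block gave 2 called genes at E11.5 and 1 at E16.5; replicate numbers do not pair these libraries, since same-numbered libraries deviated with r of -0.04, -0.02 and 0.08 at E11.5 and -0.08, 0.04 and -0.43 at E16.5. Bulk differences that turned sign when a library was left out, all uncalled, ranged at E11.5 over -0.030 to 0.33 (Upk1b), -0.33 to 0.10 (Wt1), -0.24 to 0.092 (Krt7) and -0.0015 to 0.34 (Tbx18), and at E16.5 over -0.18 to 0.25 (Upk3b), -0.037 to 0.23 (Krt7), -0.17 to 0.24 (Aldh1a2) and -0.029 to 0.051 (Tcf21). Single cells give 1 library per genotype, and bulk read depth is unknown.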
